A study of Mus musculus with 16 samples.

Results

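A set of 8 genes of cholesterol supply were followed in the irradiated mouse small intestine with and without the transcription factor HNF4A. They were chosen by name from the sterol synthesis pathway and the targets of SREBP2: Idi1, Hmgcs1, Sqle, Cyp51 and Nsdhl encode enzymes, Srebf2 and Insig1 encode regulators, and Stard4 encodes a sterol carrier. Matching these 8 symbols to the symbol column of the array table gave 14 of its 25697 probes, and these belong to 7 genes. Hmgcs1 was matched by no probe symbol and was not analysed here.

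The Hnf4aKO group held 8 VillinCreERT2-positive Hnf4afl/fl mice, in which a tamoxifen-inducible Cre recombinase under the villin promoter acts in the intestinal epithelium only, so other cell types of the tissue keep their alleles. The Hnf4aWT group held 8 Hnf4afl/fl mice without Cre, while the genotype field reads Hnf4a+/+ for the same mice; this conflict was not resolved. Mice of both groups received 1 mg of tamoxifen by gavage on each of 5 days, 14 Gy of whole-body gamma irradiation 3 weeks later, and were killed 96 hours after that, so no unirradiated tissue was measured. RNA of the intestinal tissue was read on Illumina bead arrays, 1 array per mouse. Ages of the mice are unknown here.

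Cholesterol is built from acetyl-CoA through mevalonate, isoprenoids, squalene and lanosterol by a long chain of enzymes. The genes of this chain are under the control of SREBP2, the product of Srebf2. When sterols are plentiful, INSIG proteins hold SREBP2 and its escort SCAP in the endoplasmic reticulum; when sterols are scarce, SREBP2 is cut in the Golgi apparatus and its free part enters the nucleus and acts there with the factors NF-Y and Sp1. The small intestine both makes cholesterol and takes it up from the diet, and its regrowing crypts need sterol for new membranes.

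What the members share in sequence was read from their RefSeq promoters (assembly GRCm38.p6), a stretch around each gene's start. The table held 6 of the 8 members, and Sqle and Stard4 are named only. The letters CCAAT, the core of the NF-Y element, were searched on both strands (ATTGG on the other), and stood in 6 of the 6 member promoters, against 37.4% of all 32851 promoters of the same length. The sterol regulatory element searched as TCACNCCAC (GTGGNGTGA on the other strand) stood in 1 of the 6, that of Hmgcs1, against 1.24% of all promoters. An element bound by HNF4A, searched as CAAAGTCCA (TGGACTTTG on the other strand), stood in 0 of the 6, against 0.475% of all promoters. None of these motifs contains another. The following 3 promoters are shown because their genes had unlike results in the array data. Nsdhl was called lower in Hnf4aKO tissue, and Srebf2 lay on the higher side without a call. Insig1 lay close to a difference of 0 on its brightest probe only. Whether the letters bear on these results was not tested. Capitals mark CCAAT or ATTGG.
Nsdhl, chrX:72918271-72918570, plus strand: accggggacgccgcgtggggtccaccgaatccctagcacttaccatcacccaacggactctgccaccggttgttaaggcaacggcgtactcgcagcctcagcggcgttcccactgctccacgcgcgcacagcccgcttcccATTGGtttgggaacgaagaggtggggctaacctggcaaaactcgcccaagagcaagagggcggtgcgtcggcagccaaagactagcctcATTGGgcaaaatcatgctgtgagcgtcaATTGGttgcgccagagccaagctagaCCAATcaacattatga
Srebf2, chr15:82147019-82147318, plus strand: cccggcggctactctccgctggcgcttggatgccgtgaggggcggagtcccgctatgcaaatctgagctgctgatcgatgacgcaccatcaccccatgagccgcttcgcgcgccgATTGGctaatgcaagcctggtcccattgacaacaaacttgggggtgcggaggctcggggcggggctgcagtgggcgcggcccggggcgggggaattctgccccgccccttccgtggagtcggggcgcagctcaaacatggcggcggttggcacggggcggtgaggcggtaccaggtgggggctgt
Insig1, chr5:28071162-28071461, plus strand: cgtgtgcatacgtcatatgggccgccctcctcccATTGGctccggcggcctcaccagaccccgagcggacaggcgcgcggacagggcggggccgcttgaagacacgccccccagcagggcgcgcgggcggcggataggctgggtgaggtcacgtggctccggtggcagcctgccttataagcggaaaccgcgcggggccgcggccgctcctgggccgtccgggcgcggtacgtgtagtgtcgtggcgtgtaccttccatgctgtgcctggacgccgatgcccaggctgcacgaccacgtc
The Nsdhl promoter held 4 such boxes and the promoters of Srebf2 and Insig1 held 1 each. A match describes the letters only. A missing match does not show that an element is absent, since variants of these strings were not searched.

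Across the series 46.9% to 53.1% of probes were detected per array, that is, had a detection p under 0.05 against the negative control beads. Values are log2 of background-corrected, quantile normalized intensity. A difference is the mean of Hnf4aKO minus the mean of Hnf4aWT arrays on this scale, given with its standard error (SE) or 95% interval and a Benjamini-Hochberg adjusted p from limma's moderated test over all 10143 tested genes; a gene is called past the threshold at an adjusted p under 0.05. Hnf4a itself read 10.49 ± 0.19 in Hnf4aKO and 12.24 ± 0.16 in Hnf4aWT tissue (SD, n = 8 each), a difference of -1.75, and its groups did not overlap. Whether its probe lies in the deleted part is unknown here. In whole tissue, fewer cells of a type and less RNA per cell cannot be told apart.

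Of the 14 member probes, 13 were detected on at least 6 arrays and kept, and all 7 genes were tested through their brightest kept probe, which was detected on all 16 arrays. Of the 7 members 2 fell, Nsdhl and Stard4, and 0 rose. That is 28.6% of the members called, against a background of 30.7% of all tested genes, with 17.2% called lower and 13.5% called higher. The median difference of the members was 0.02, against -0.02 over all tested genes. The 7 differences ran between -0.43 and 0.28 and lay on both sides of 0, with signs for Sqle, Cyp51 and Insig1 that depend on the scaling or the probe.

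**Figure D1:**
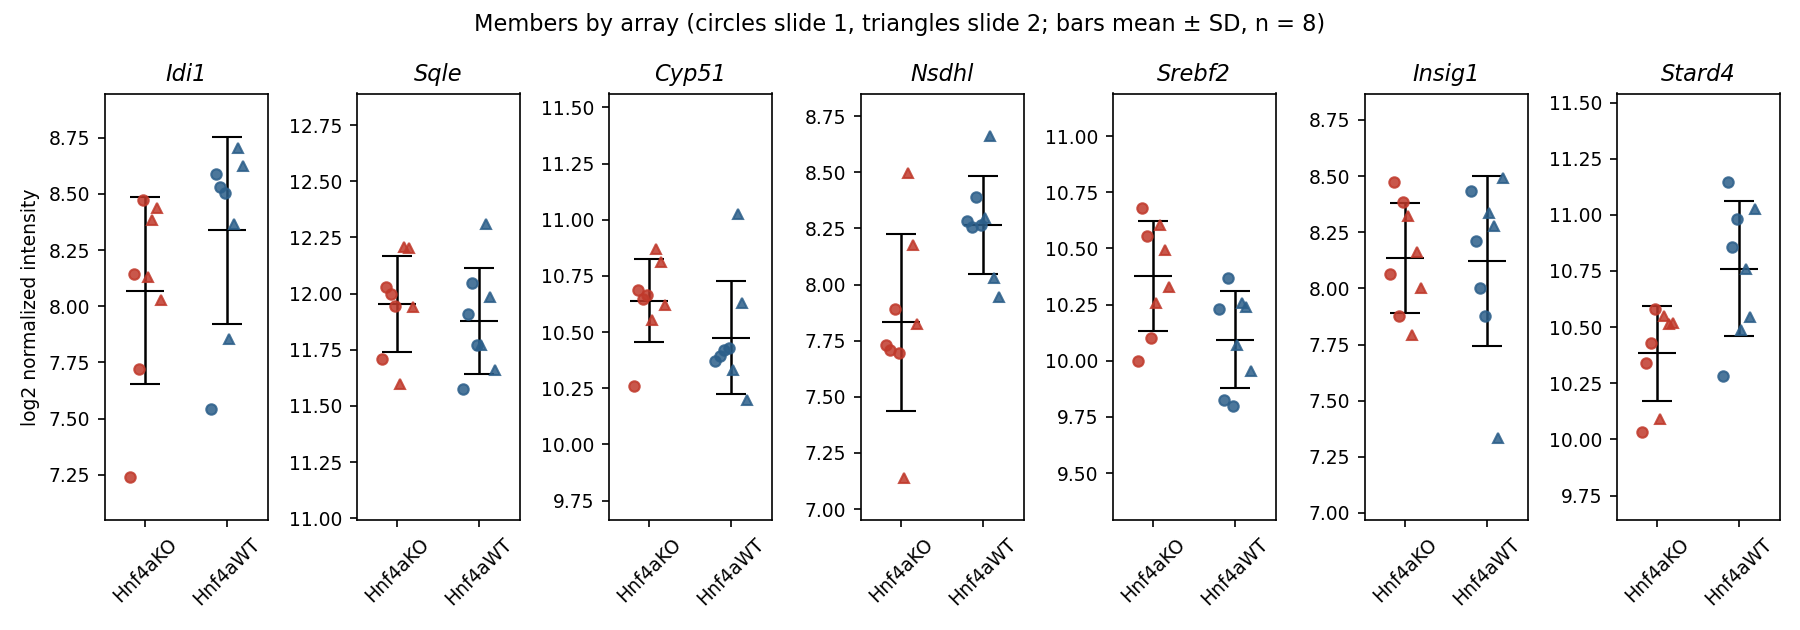
Log2 normalized intensity of the brightest probe of each member (vertical axes, which all span the same width) in Hnf4aKO (red, left) and Hnf4aWT (blue, right) arrays, with circles for slide 1, triangles for slide 2 and black bars for the mean ± SD of 8 arrays. Nsdhl and Stard4 lie lower on average in Hnf4aKO tissue, 4 of 8 Srebf2 values of Hnf4aKO arrays lie above every Hnf4aWT array, and the groups overlap in every gene.

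Among the tested member enzymes, Idi1 stands earliest in the pathway, where it turns isopentenyl diphosphate into dimethylallyl diphosphate, the starter unit of isoprenoids. Its lowest, median and highest values were 7.24, 8.14 and 8.47 in Hnf4aKO arrays, against 7.54, 8.52 and 8.70 in Hnf4aWT arrays. The lowest array of each group was its replicate 1, only that of Hnf4aKO lay below every Hnf4aWT array, and the other arrays overlapped. The difference was -0.27 with a 95% interval of -0.68 to 0.14 (adjusted p = 0.317, limma), so a fall to well under the Hnf4aWT level and a small increase both remain within the interval.

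Sqle, the squalene epoxidase that makes the first oxygenated step after squalene and is a rate-limiting enzyme of the later pathway, read 11.60, 11.97 and 12.21 as lowest, median and highest in Hnf4aKO arrays. The same values were 11.57, 11.84 and 12.31 in Hnf4aWT arrays, so that the range of one group lay within the range of the other. The difference was 0.08 (95% interval -0.17 to 0.32; adjusted p = 0.655, limma), and it was negative for the dimmer second probe of the gene (-0.14, adjusted p = 0.556 over all kept probes), with 75th percentile or median scaling, and with the mean of both probes. No direction can be given for Sqle.

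Cyp51, the lanosterol demethylase, read 10.26, 10.66 and 10.87 as lowest, median and highest in Hnf4aKO arrays, against 10.20, 10.41 and 11.03 in Hnf4aWT arrays. Its difference was 0.16 (95% interval -0.07 to 0.40; adjusted p = 0.291, limma), and close to 0 with median scaling (-0.0057). The highest value of all belonged to a Hnf4aWT array, replicate 6, and the groups overlapped.

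Nsdhl encodes a sterol dehydrogenase that acts after Cyp51, in the removal of methyl groups from the ring, and lies on the X chromosome. Its lowest, median and highest values were 7.14, 7.78 and 8.50 in Hnf4aKO arrays and 7.94, 8.27 and 8.66 in Hnf4aWT arrays. Of the 8 Hnf4aKO arrays 6 lay below the lowest Hnf4aWT array, while the other 2, replicates 6 and 7, lay within the Hnf4aWT range. The difference was -0.43 (SE 0.15, adjusted p = 0.0400, limma), so Hnf4aKO tissue held 0.740 of the Hnf4aWT signal. The exact permutation test over all 12870 splits of the arrays gave p = 0.0141 (two-sided). Slide 1 gave -0.54 and slide 2 gave -0.33.

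The 4 probes of Nsdhl, which share their RNA samples and are no replicates, differed in the same direction, by -0.43, -0.55, -0.41 and -0.38. Adjusted over all kept probes, of which 29.4% were called, 2 of these 4 passed (adjusted p = 0.0413 and 0.0368, limma) and 2 did not (0.0736 and 0.0965). The call of Nsdhl was lost when any 1 of 11 arrays was left out (Hnf4aKO replicates 1, 2, 4, 5 and 8, Hnf4aWT replicates 1 to 6), with adjusted p between 0.0562 and 0.0797 and differences down to -0.33 in size; it also went with scaling to the 75th percentile (adjusted p = 0.0544) or to the median (0.0532), without a filter (0.0601) and on slide 2 alone (0.469), the adjusted p running from 0.0240 to 0.469 over the settings that leave out no single array, and from 0.00719 to 0.0797 over the arrays left out in turn.

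**Figure D2:**
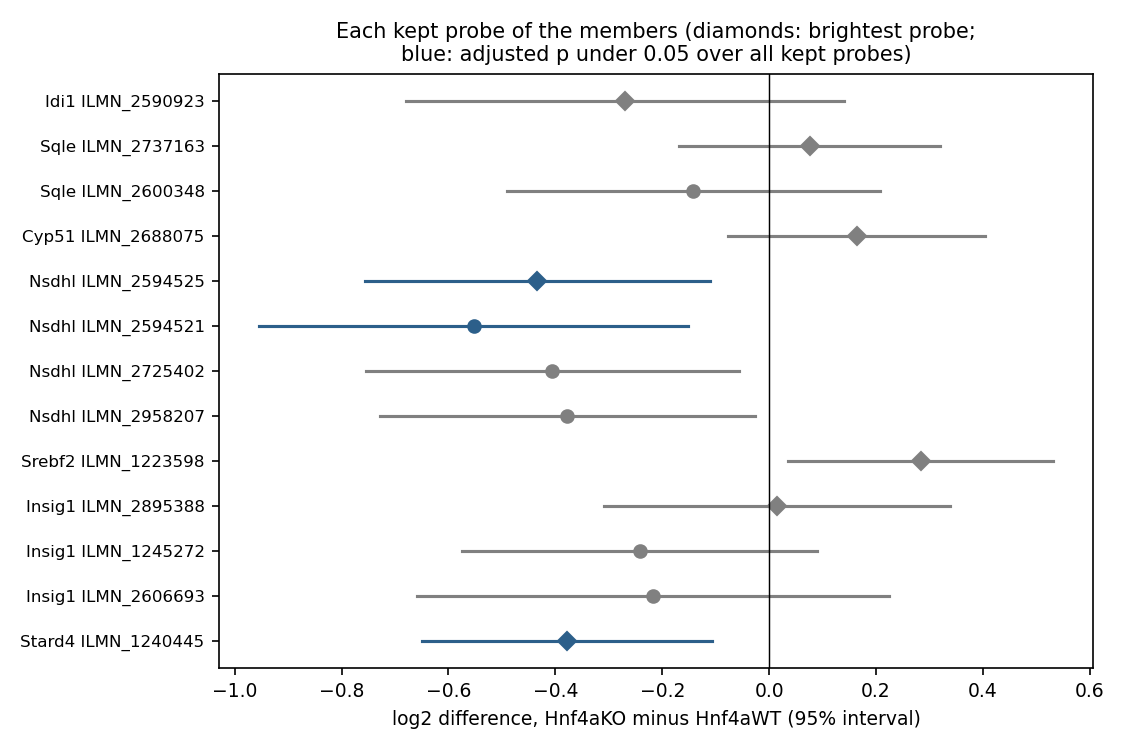
Log2 difference, Hnf4aKO minus Hnf4aWT, of each kept member probe (points, diamonds for the brightest probe of a gene) with its 95% interval; blue marks an adjusted p under 0.05 over all kept probes. The 4 Nsdhl probes lie between -0.55 and -0.38, while the probes of Sqle and of Insig1 lie on both sides of 0.

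Among the regulators, Srebf2 read 9.998, 10.41 and 10.68 as lowest, median and highest in Hnf4aKO arrays, against 9.80, 10.15 and 10.37 in Hnf4aWT arrays. Of the 8 Hnf4aKO arrays 4 lay above the highest Hnf4aWT array, and the other 4 overlapped with that group. The difference of 0.28 (95% interval 0.04 to 0.53) missed the threshold (adjusted p = 0.0749, limma; exact permutation p = 0.0292, two-sided, not adjusted). It was 0.28 on slide 1 and 0.29 on slide 2, and it passed without Hnf4aKO replicate 1 (adjusted p = 0.0322, with a range of 0.0322 to 0.139 over the 16 arrays left out in turn). Over the 14 other settings the difference ran from 0.14 to 0.29 and passed in 0 of them (adjusted p 0.0625 to 0.539, limma). A transcript level says nothing of how much SREBP2 is cut and active.

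Insig1, the retention protein that is itself among the most sterol-responsive SREBP2 targets, read 7.79, 8.11 and 8.48 as lowest, median and highest in Hnf4aKO arrays. In Hnf4aWT arrays it read 7.34, 8.24 and 8.49. The difference was 0.02 (95% interval -0.31 to 0.34; adjusted p = 0.957, limma). The 2 other kept probes gave -0.24 and -0.22 (adjusted p = 0.264 and 0.469 over all kept probes), and the remaining probe was detected on 1 of 16 arrays and was not tested, so the sign for Insig1 depends on the probe. The intervals of the 3 tested probes all include 0.

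Stard4 encodes a START domain protein that carries cholesterol between membranes. Its lowest, median and highest values were 10.03, 10.47 and 10.58 in Hnf4aKO arrays, against 10.28, 10.81 and 11.15 in Hnf4aWT arrays. Of the 8 Hnf4aKO arrays 2, replicates 1 and 5, lay below the lowest Hnf4aWT array, and the rest overlapped with the lower part of that group. The difference was -0.38 (SE 0.13, adjusted p = 0.0336, limma; exact permutation p = 0.0126, two-sided), which is 0.770 of the Hnf4aWT signal, and it was -0.47 on slide 1 and -0.28 on slide 2. The call was lost when any 1 of 8 arrays was left out (Hnf4aKO replicates 1, 2 and 5, Hnf4aWT replicates 2, 3, 4, 6 and 8; adjusted p between 0.0503 and 0.0693), with differences between -0.45 and -0.32 over all arrays left out in turn. Each slide alone, with 4 arrays a group, left it short of the threshold (adjusted p = 0.180 and 0.262, against a range of 0.0109 to 0.262 over all settings). No array changed the sign.

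A probe outside the chosen symbols bears on Hmgcs1, whose enzyme condenses acetoacetyl-CoA and acetyl-CoA at the start of the pathway, and it was added after its values were seen. The file describes the locus LOC100040592 as similar to Hmgcs1 protein, and whether its probe reads the transcript of Hmgcs1 was not tested. It read 13.34, 13.76 and 14.00 as lowest, median and highest in Hnf4aKO arrays, against 12.83, 13.58 and 13.95 in Hnf4aWT arrays. Its difference of 0.21 (95% interval -0.11 to 0.54; adjusted p = 0.320 over all kept probes, limma) did not pass the threshold.

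Besides the members, 13 enzymes of the pathway were tested and 1 fell while 0 rose. That is 7.69% called, against 30.7% of all tested genes. The number called ran from 0 to 2 over the 14 other settings and from 0 to 3 with 1 array left out. An unadjusted p under 0.05 was reached by 5 of 13, against 4194 of all 10143 genes. Lbr, the lamin B receptor with sterol reductase activity, fell by 0.23 (SE 0.08, adjusted p = 0.0493, limma), and leaving out 1 array ended the call in 13 of 16 cases (all but Hnf4aKO replicate 6 and Hnf4aWT replicates 5 and 6; adjusted p up to 0.0965), as did 5 of 14 other settings (adjusted p 0.00468 to 0.489 over the 14). The median difference of the 13 was -0.19, with a range of -0.31 to 0.31, against -0.02 over all tested genes, and 84.6% of them had a negative difference against 53.2% of all tested genes. The exceptions on the positive side were Sc5d, the lathosterol oxidase, at 0.03 (adjusted p = 0.902, limma), and Msmo1, the methyl sterol oxidase that acts just before Nsdhl, at 0.31 (adjusted p = 0.0885, limma); both were named after their values were seen. A further 4 enzymes of the list, Hmgcs1 among them, were not analysed here.

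Of the machinery that holds, cuts and degrades SREBP and the sterol enzymes, 9 genes besides Srebf2 and Insig1 were tested, and 1 fell while 0 rose. That is 11.1% called, against 30.7% of all tested genes. Erlin1, an endoplasmic reticulum protein that binds the SREBP complex and restrains its release, fell by 0.43 (SE 0.13, adjusted p = 0.0211, limma). The median of the 9 was -0.11.

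Among the other SREBP2 targets of sterol uptake and transfer that are reported here, Tmem97 fell, as did 17.2% of all tested genes. Npc1l1, at 0.38 (adjusted p = 0.341, limma), and Aacs, at 0.06 (adjusted p = 0.663, limma), lay on the positive side and did not pass. Tmem97, the sigma-2 receptor, averaged 11.08 ± 0.19 in Hnf4aKO and 11.67 ± 0.15 in Hnf4aWT tissue (SD, n = 8 each), and this difference of -0.59 had an SE of 0.09 (adjusted p = 2.07e-04, limma). It stayed past the threshold in each of the 14 other settings and with each of the 16 arrays left out. It differed by more than any member.

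**Figure D3:**
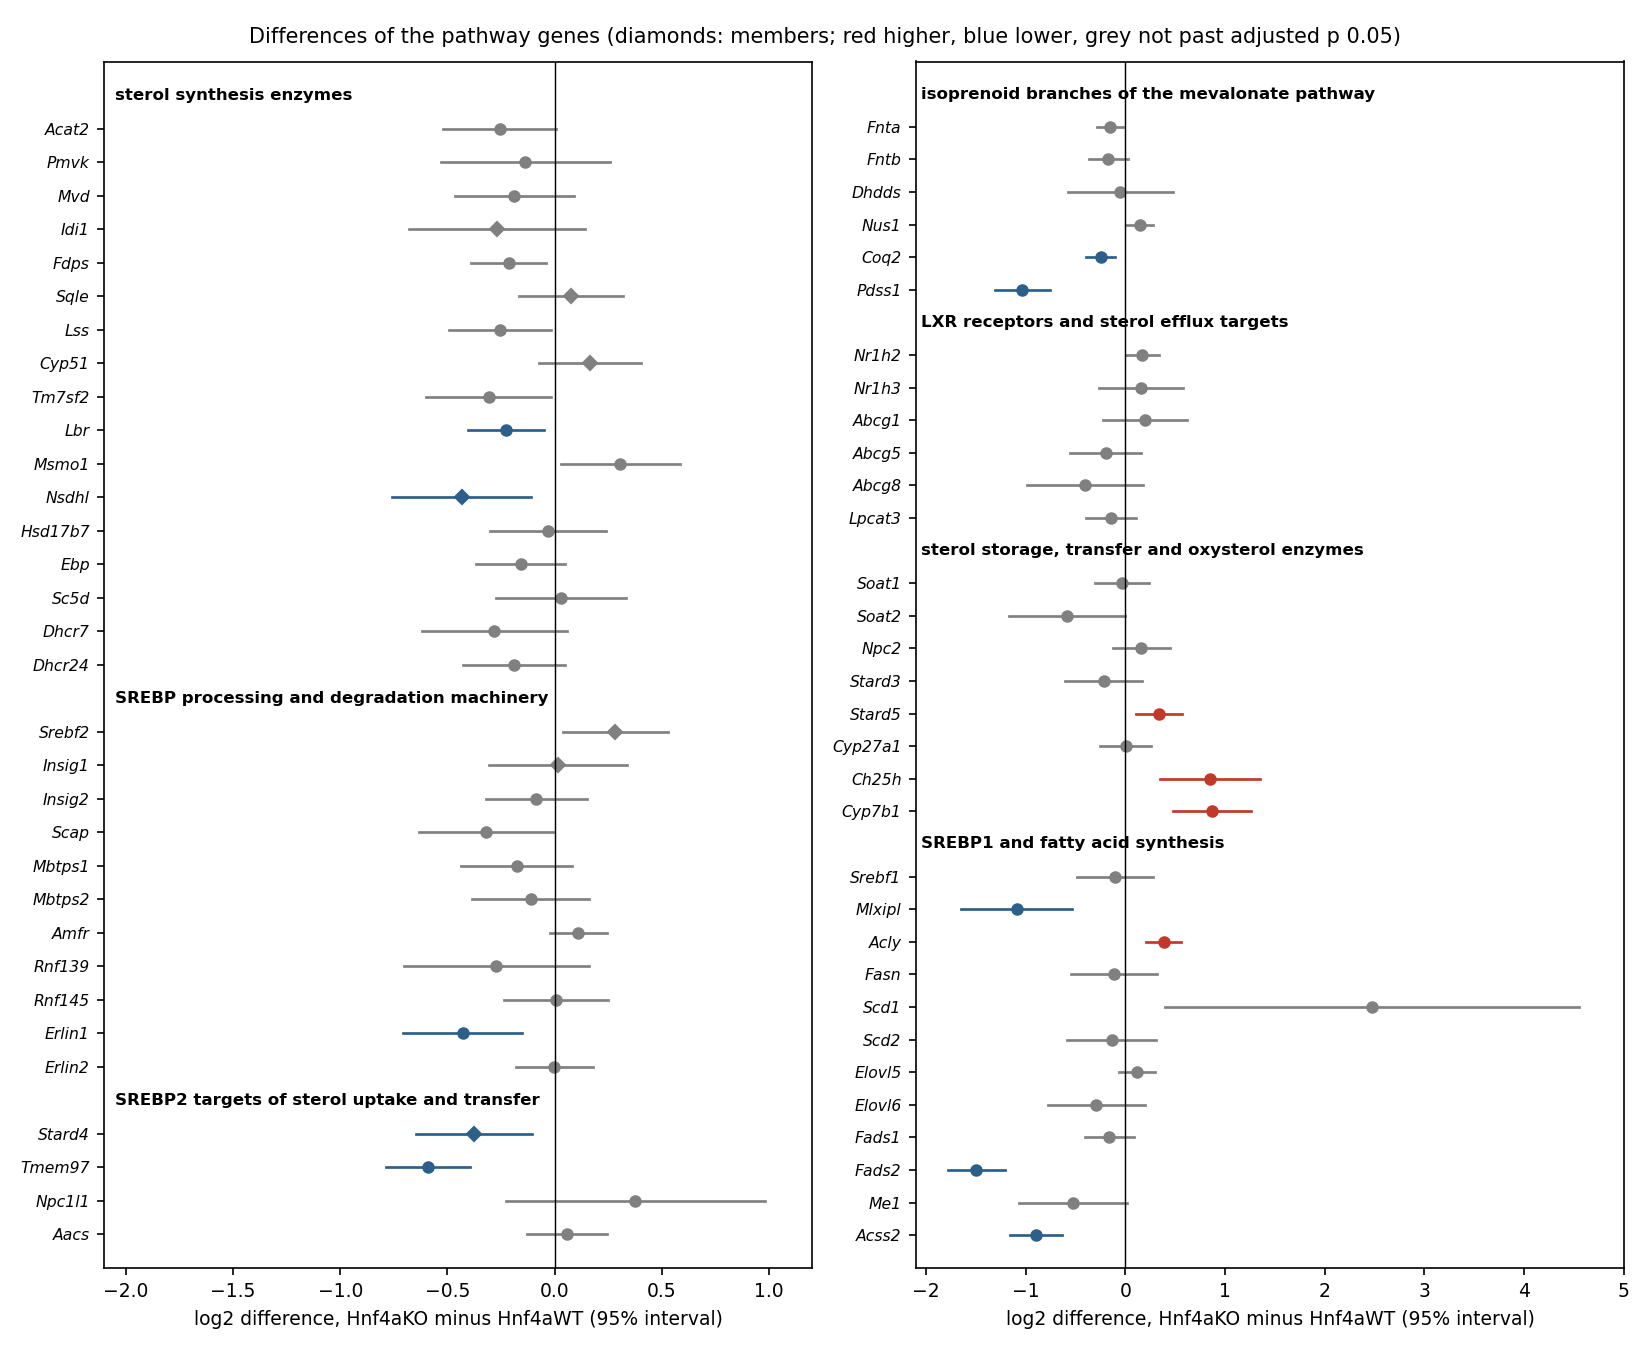
Log2 difference, Hnf4aKO minus Hnf4aWT, with its 95% interval for tested genes of 7 pathway lists (2 are not shown), the members as diamonds. Red and blue mark genes called higher or lower at an adjusted p under 0.05; the sterol enzymes cluster between -0.43 and 0.31, and Fads2, Mlxipl, Pdss1 and Acss2 lie farthest to the left.

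Of 6 tested genes of the isoprenoid branches 2 fell and 0 rose: Pdss1, which builds the side chain of ubiquinone, by 1.03 (SE 0.13, adjusted p = 2.74e-05, limma), and Coq2, which attaches that chain, by 0.25 (SE 0.07, adjusted p = 0.0123, limma). Of 8 tested genes of sterol storage, transfer and oxysterol synthesis 3 rose and 0 fell. That is 33.3% of the isoprenoid and 37.5% of the storage and oxysterol genes called, against 30.7% of all tested genes. Cyp7b1, the oxysterol hydroxylase, rose by 0.87 (SE 0.19, adjusted p = 0.00223, limma), Ch25h, the interferon-inducible cholesterol hydroxylase of macrophages and other cells, by 0.84 (SE 0.24, adjusted p = 0.0128, limma), and Stard5, a START domain protein, by 0.33 (SE 0.11, adjusted p = 0.0285, limma). Stard5 lost its call with median scaling (0.21, adjusted p = 0.326) and 75th percentile scaling (0.28, adjusted p = 0.0942), on either slide alone (adjusted p = 0.121 and 0.238), and without Hnf4aKO replicate 5 or 7 or Hnf4aWT replicate 2 (adjusted p between 0.0542 and 0.0588, against a range of 0.0126 to 0.326 over the other settings). Of 6 tested LXR receptors and efflux targets 0 passed by limma and 1 had an unadjusted p under 0.05, Nr1h2, the LXR beta gene, at 0.17 (adjusted p = 0.104), whose other kept probe pointed the opposite way.

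In the sister list of SREBP1 and fatty acid synthesis, 1 of 12 tested genes rose and 3 fell. That is 33.3% called, against 30.7% of all tested genes. The largest difference of the list was that of Scd1, at 2.48 (SE 0.98), which did not pass (adjusted p = 0.0656, limma). Its SD was 2.39 in Hnf4aKO and 1.95 in Hnf4aWT tissue. Fads2, a fatty acid desaturase, differed by -1.495 (SE 0.14, adjusted p = 9.80e-07, limma), Mlxipl, the carbohydrate response factor ChREBP, by -1.09 (SE 0.26, adjusted p = 0.00508, limma), and Acss2, the cytosolic acetyl-CoA synthetase, by -0.90 (SE 0.12, adjusted p = 5.50e-05, limma). On 1 or both slides alone, with 4 arrays a group, Erlin1, Coq2, Ch25h, Cyp7b1 and Mlxipl missed the threshold (adjusted p from 0.0624 to 0.309). Acly, which makes cytosolic acetyl-CoA from citrate, rose by 0.38 (SE 0.09, adjusted p = 0.00290, limma). That call ended under scaling to the 75th percentile (0.23, adjusted p = 0.148) or the median (0.16, adjusted p = 0.478) and on slide 1 alone (adjusted p = 0.130), over a range of 6.89e-04 to 0.478.

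Cell type markers moved on the same arrays. Over all tested genes, 13.5% were called higher and 17.2% lower. Macrophage markers rose for 11 of 12, with a summed linear intensity of 20626 to 57417 in Hnf4aKO and 10521 to 18916 in Hnf4aWT arrays, and proliferation markers fell for 9 of 11, with 11972 to 18428 and 18380 to 21374. Endothelial markers rose for 6 of 10, fibroblast markers for 4 of 9, adipocyte markers for 1 of 7 and smooth muscle markers for 0 of 7 (0 with an unadjusted p under 0.05, limma). The few adipocyte calls came with a median difference of 1.15. Of these 7 genes 4 had an unadjusted p under 0.05 (limma) and 1 had a negative difference. Their sum was 2922 to 52616 in Hnf4aKO (median 20300) and 2110 to 18174 in Hnf4aWT arrays (median 5123). Epithelial markers rose for 1 of 9 and their sum was 75580 to 92934 in Hnf4aKO and 76725 to 88112 in Hnf4aWT arrays. All 12 macrophage, 9 of 10 epithelial and 11 of 14 proliferation markers were tested, the rest not being measured or detected well enough. The part of these shifts in the differences of Nsdhl, Stard4, Tmem97 and Ch25h was not tested.

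The members also varied among mice of 1 genotype. Over 21 pairs of the 7 genes in each genotype, 42 pairs in all, Pearson's r was positive for 16 pairs in Hnf4aKO arrays (median 0.55) and for 12 pairs in Hnf4aWT arrays (median 0.15). After Benjamini-Hochberg adjustment over the 42 pairs, 0 passed by Pearson's r and 1 by Spearman's rho (exact permutation tests, two-sided, n = 8), while 8 had an unadjusted Pearson p under 0.05. That pair was Sqle and Cyp51 in Hnf4aKO arrays, with r = 0.83 (exact permutation p = 0.00804, adjusted 0.0844), rho = 0.95 (exact p = 0.00114, adjusted 0.0479), and r = 0.97 without the 2 arrays farthest from the median of Sqle. In Hnf4aWT arrays the same pair had r = 0.85 (exact p = 0.00771, adjusted 0.0844), rho = 0.71 (exact p = 0.0576, adjusted 0.291), and r = 0.73 without 2 arrays. Sqle and Stard4 in Hnf4aKO arrays had r = 0.82 (exact p = 0.0197, adjusted 0.128) and rho = 0.50 (exact p = 0.216, adjusted 0.478), and r was 0.12 without 2 arrays, so this relation rests on those arrays. On its brightest probe Insig1 had r of -0.64 to 0.27 to the other 6 members in Hnf4aKO arrays and -0.52 to 0.21 in Hnf4aWT arrays. The sign turned with the probe: a second Insig1 probe, looked at after the data were seen, had r of 0.05 to 0.40 in Hnf4aKO and -0.53 to 0.73 in Hnf4aWT arrays, and the remaining kept probe had r of -0.23 to 0.31 in Hnf4aKO and -0.21 to 0.65 in Hnf4aWT arrays.

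**Figure D4:**
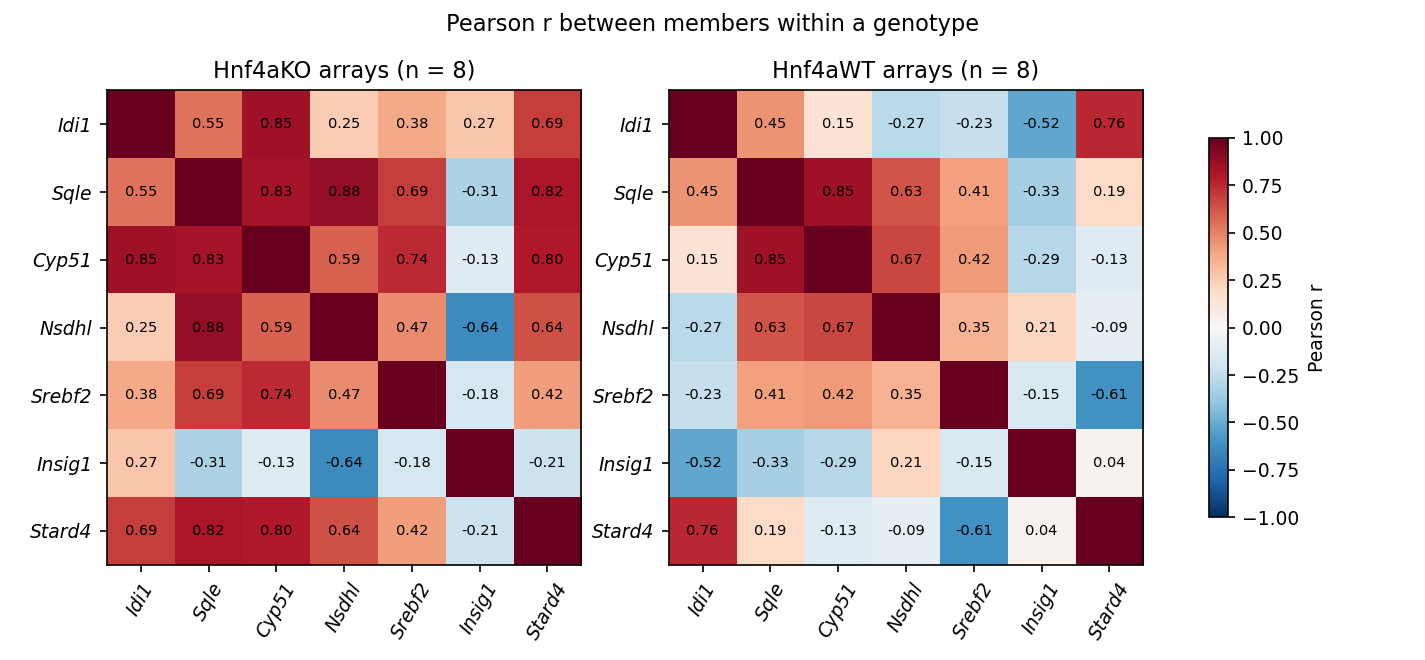
Pearson's r between each pair of members over the 8 Hnf4aKO arrays (left) and over the 8 Hnf4aWT arrays (right), on a colour scale from -1 to 1. Sqle and Cyp51 reach 0.83 and 0.85, and the row of Insig1, drawn from its brightest probe, is mostly negative in both panels, a sign that turned with the probe.

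The genes most like the members were sought among the 10136 other tested genes, by Pearson's r over the 16 arrays to the members' mean profile after the genotype means were taken out. The members shared this profile unequally. Each member's r to the mean of the other members was 0.84 for Sqle, 0.70 for Cyp51 and 0.53 for Nsdhl. It was 0.45 for Idi1, 0.40 for Stard4, 0.36 for Srebf2 and -0.27 for Insig1 on its brightest probe. Hsd17b7, the enzyme of sterol synthesis that works beside Nsdhl in the same demethylation complex, ranked 1 with r = 0.89 (0.89 within Hnf4aKO and 0.88 within Hnf4aWT arrays), and its own genotype difference was -0.03 (adjusted p = 0.877, limma). The others of the first 8 were Myo6 (r = 0.85), Gipc2 (0.85), Lig3 (0.84), Naip1 (0.84), Tcf7l2 (0.84), Myrfl (0.84) and Prelid3b (0.83). Of the 13 other sterol synthesis enzymes 12 had a positive r, as did 55.3% of all ranked genes. The median of the 13 was 0.45 against 0.05 over all ranked genes, and 4 ranked in the highest 5% of genes. Without Hnf4aKO replicate 1 and Hnf4aWT replicate 6, the arrays farthest from the profile's median, Hsd17b7 had r = 0.80 and ranked 4. The median of the 13 was then 0.44, against 0.02 over all ranked genes.

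The points of these correlations share their tissue samples and arrays. The members' profile was lowest on Hnf4aKO replicate 1. That array had the highest summed macrophage (57417), fibroblast (37936), adipocyte (52616) and endothelial (8569) markers of all 16 arrays. It also had the lowest proliferation sum (11972). The profile was highest on Hnf4aWT replicate 6, which had the lowest macrophage (10521) and adipocyte (2110) sums. The endothelial (3882), fibroblast (16228) and proliferation (19636.5) sums of Hnf4aWT replicate 6 lay within the range of the Hnf4aWT arrays. The part of cell composition in the profile was not tested.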

How the data were processed

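Small intestinal RNA of 16 mice was measured, 1 array each. The deposited intensity of each probe is not normalized, per the file headers, and a detection p-value stands beside it, in steps that fit 798 negative control beads. The deposited series table also holds an intensity per probe, quantile normalized to judge by its values, and served as an alternative. No source used here names the scanner.

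Background was corrected by normexp (limma 3.58.1, R 4.3.3, background inferred from the detection p-values, offset 16), quantile normalized and converted to log2, which shrinks differences of dim probes. Probes detected (p under 0.05) on at least 6 of 16 arrays were kept (13460), and the brightest per gene was tested (10143 genes). Symbols were updated through RefSeq (GRCm38.p6) synonyms: 20733 were current, 3903 updated and 1061 kept as they were. No deposited column was left unmapped.

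Hnf4aKO and Hnf4aWT were compared by limma's moderated test (lmFit, eBayes) over all genes. Exact permutation tests of the genotype differences were run in R. Those of the pairs of members used python 3.11.15 and numpy 2.4.6. The 2 slides hold 4 arrays of each group. Arrays correlated between 0.906 and 0.988, and none was treated as a duplicate. The design text calls the samples mice, and they were taken as separate animals. Precision is limited by the number of arrays. The procedure was tested on simulated data.

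Members, lists and tests were chosen with earlier results of these data known. Named are Hnf4a, the members, all called genes of the pathway lists (at most 6 a list, or the smallest p), and the 8 genes most like the members. Alternatives covered background correction, scaling, filter, probe choice, slide, replicate number, variance model and each array left out. Each probe on its own was added after seeing the data. Results of 2 list genes are not reported here.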

Additional observations from a re-analysis of the deposited data

Results flagged for a closer look

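Of 74 groups of 8 arrays examined for a single array far from the rest, 1 was found, and chance gives about 1 in 20. Sc5d, Msmo1, Npc1l1, Aacs and Scd1 were not examined. Prelid3b, one of the genes most like the members, read 12.28 on Hnf4aKO replicate 1, while the next lowest Hnf4aKO array read 12.64. The gap was 0.551 of the group's range and past the Dixon limit for 8 values. The value of no member was set apart in this way.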

How the results depend on the processing

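Of the members, Idi1 and Srebf2 kept their direction and stayed short of the threshold in all 14 other settings (differences -0.40 to -0.14 and 0.14 to 0.29). Slide 1 alone and slide 2 alone, with fewer arrays, gave 758 and 1335 genes past the threshold, and 1 and 0 members, against 3115 genes and 2 members with all arrays. They gave 1 and 1 other pathway genes higher and 5 and 5 lower, against 4 and 9. Nsdhl was then -0.33 on slide 2, Stard4 -0.47 and -0.28, and Insig1 -0.0398 on slide 2. With 75th percentile scaling, median scaling and no filter 1 member passed, with Nsdhl at -0.41, -0.48 and -0.43, and 75th percentile scaling left 2 pathway genes higher. Sqle reversed to -0.0678 and -0.14 under these scalings, and to -0.0331 with the mean of kept probes. Median scaling turned Cyp51 to -0.0057 and Insig1 to -0.0374, and the mean of kept probes turned Insig1 to -0.15. On their own, other probes gave -0.41 and -0.38 for Nsdhl, -0.24 and -0.22 for Insig1 and -0.14 for Sqle. Median scaling moved the median over all genes to -0.11, against -0.02, and the share of higher calls to 32.3%, against 44.1%. The cause of these changes was not tested.

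With 1 array left out, members past the threshold numbered 0 to 2, being 0 without Hnf4aKO replicate 2 or 5 or Hnf4aWT replicate 2, 3, 4 or 6. Differences ran from -0.53 to -0.33 for Nsdhl, -0.45 to -0.32 for Stard4, 0.24 to 0.34 for Srebf2 and -0.0970 to 0.0680 for Insig1. The labels do not say that replicate numbers pair animals. Deviations of same-numbered arrays correlated at -0.23 to 0.39, over 0.1 for 6 of 8 numbers, and 4 of 8 correlated best with their own number, a hint from the data that falls short of every pair. With the number as a replicate block 3460 genes and 2 members passed, Nsdhl at adjusted p = 0.0276 and Stard4 at 0.0110 (limma); Lbr lost its call (0.0513).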
